A study of Danio rerio with 12 samples.

Results

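Microtubules are hollow filaments of paired alpha and beta tubulins, and gamma tubulin starts their growth at the centrosome. Growing neurons need large amounts of tubulin, together with proteins that hold or release it: stathmins bind free tubulin, the tau and MAP proteins stabilise the filament, collapsin response mediators (the dpysl genes) bind tubulin and take part in growth cone steering, and neurofilaments fill the axon. Some forms are made mainly in neurons, whereas others are made in most cells, dividing ones included.

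The genes described here are the tubulins and neuronal cytoskeleton genes, chosen by symbol alone: the numbered alpha, beta and gamma tubulins, stathmins, neurofilament and internexin genes, dpysl genes, the doublecortin, map1, map2, map6 and tau names, gap43 and the marcks genes. The rule took 48 of the 31901 genes listed, all of them protein coding, under 47 symbols, because tuba1c stands under 2 identifiers. The rule itself uses names and no measured value. The choice of genes, like that of the classes and gene lists below, was made with earlier results of these data known. By general knowledge of vertebrate forms, 28 were classed as neuronal and 14 as broadly expressed, and 5 were left unassigned (tuba2, tuba4l, tuba7l, tubb1 and map6d1). The classes follow the names and were not measured here. The zebrafish gene tubb5 was placed with the neuronal forms, although its namesake in mammals is broadly made. The remaining gene, dcxr, met the rule by its letters only: it encodes a dicarbonyl and L-xylulose reductase, no part of the cytoskeleton.

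RNA came from whole wild-type zebrafish embryos kept in solution between 6 and 24 hours post-fertilisation. The 3 groups of 4 libraries were 75 µM GW9662, an antagonist of the nuclear receptor PPARγ, 25 µM rosiglitazone, an agonist of the same receptor, and the vehicle, 0.1% DMSO. The compound doses differ. Groups follow the sample titles and library names, but the treatment tag of the GW9662 libraries reads TBBPA, and that of the rosiglitazone libraries reads DMSO. Nothing in the labels says that the 4 libraries of a group came from separate clutches, so p-values measure only the spread between these libraries, which may be technical.

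Libraries held 16.2 to 22.7 M assigned fragments with GW9662, 15.2 to 21.5 M with rosiglitazone and 12.8 to 19.0 M with DMSO. A batch tag gives each library an hour post-fertilisation of its own: 24 to 27 with DMSO, 28 to 31 with GW9662 and 32 to 35 with rosiglitazone. All but that of DMSO replicate 1 lie past 24 hours, the stated end of exposure. The hours do not overlap between groups, so that tag and the treatment cannot be told apart. A difference in embryo age was not tested. GW9662 replicate 4 and rosiglitazone replicate 1 had the highest FPKM totals of their groups. The library size implied by the deposited FPKM was not exactly the assigned fragments. Over the 12 libraries it was 0.957 to 1.04 times that number. It was lowest within each group in the same libraries, at 0.968 in GW9662 replicate 4 and 0.957 in rosiglitazone replicate 1. In whole embryos, fewer cells of a type and less RNA per cell cannot be told apart. Skeletal muscle genes were far lower in the GW9662 libraries: 21 of 22 tested fell and 0 rose (median log2 change -1.39). Over all genes tested, 17.1% were lower and 18.9% higher with GW9662. The summed level of the muscle genes was 5519 to 6404 FPKM with GW9662, 10590 to 13510 with rosiglitazone and 15030 to 15740 with DMSO. With rosiglitazone, 12 of the 22 fell and 2 rose, against 7.68% lower and 9.29% higher over all genes. The part of muscle in the tubulin values was not tested.

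FPKM scales a gene's fragments to its length and to a size set for the library, so levels can be set side by side between genes. The broad alpha tubulin tuba8l4 was the most abundant gene of the rule, followed by the broad beta tubulin tubb4b and by marcksl1b, a membrane and actin binding substrate of protein kinase C. The most abundant neuronal form was tuba1a, an alpha tubulin of growing neurons, at 296 ± 13.0 FPKM with GW9662, 341 ± 9.62 with rosiglitazone and 396 ± 22.7 with DMSO (SD, n = 4 each). The neurofilament genes inaa, neflb and nefla were near the bottom, and tubb2b had no fragment in any of the 12 libraries. The genes of the rule together made up 0.95 ± 0.016% of all FPKM with GW9662, 1.04 ± 0.0177% with rosiglitazone and 1.16 ± 0.00768% with DMSO.

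**Figure D1:**
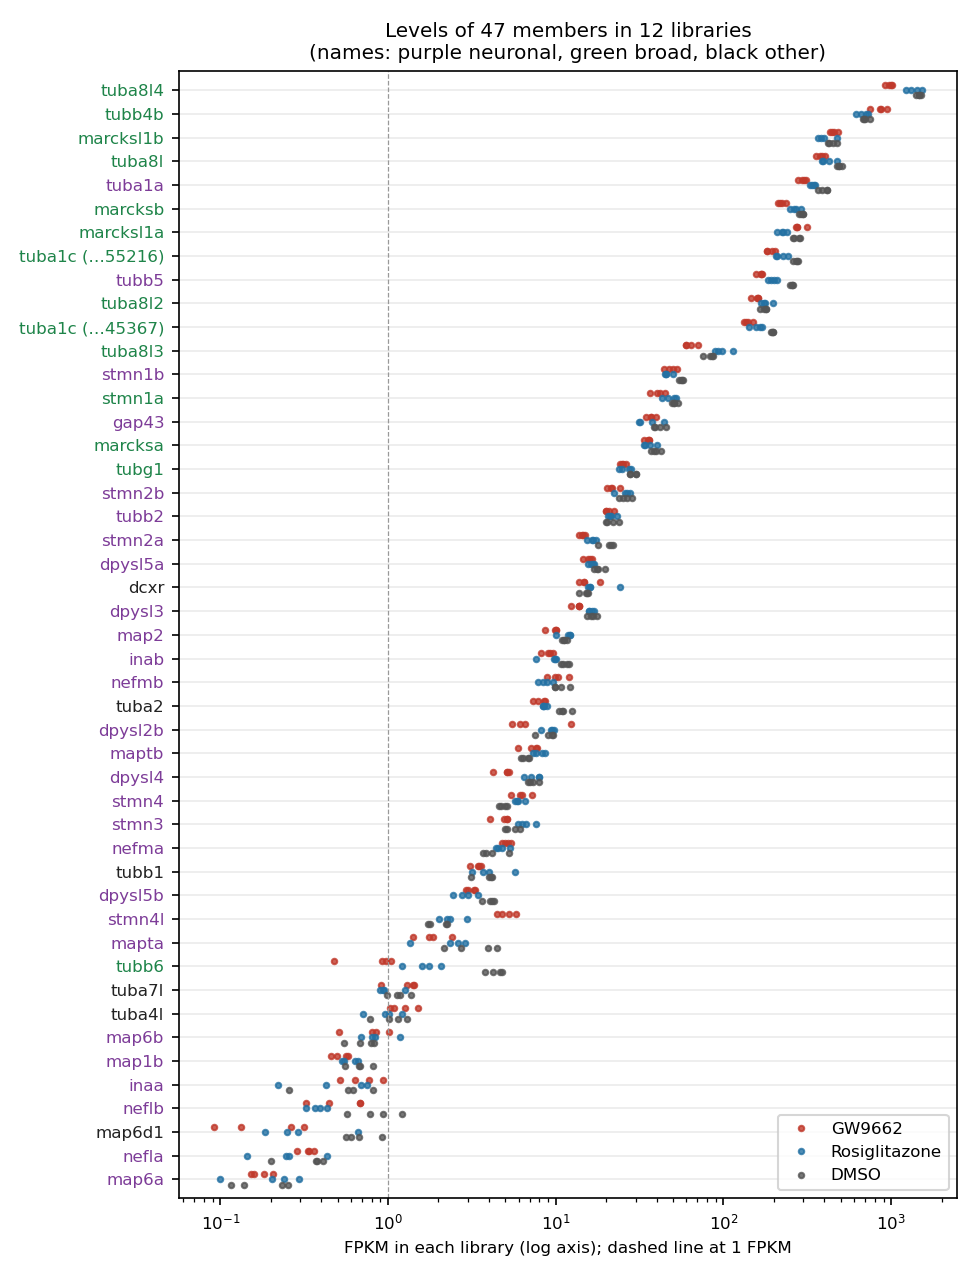
FPKM of 47 genes of the rule in each of 12 libraries on a log axis, ordered by mean level, with GW9662 in red, rosiglitazone in blue and DMSO in grey; tubb2b, at 0 throughout, is left out. The levels run from tuba8l4, at 913 to 1518 FPKM, down to map6a, which stays under 1 FPKM in every library.

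Several genes lie side by side in the coordinates of the deposited table, for which no source used here names a genome build. On chromosome 23, tuba1c (ENSDARG00000055216, 35690657 to 35694461, minus strand), tuba1a (ENSDARG00000001889, 35708730 to 35711398, plus strand) and tuba1c (ENSDARG00000045367, 35713557 to 35716519, plus strand) follow each other with 0 listed genes between them and gaps of 14.3 and 2.16 kb. The neurofilament genes form a pair on chromosome 21 (nefla and nefma, 2.81 kb apart) and another on chromosome 8 (nefmb and neflb, 6.96 kb apart), each with its members on opposite strands. Tubulin coding sequences are very alike, and the labels describe both strand-specific and unstranded libraries. How fragments were shared among near-identical tubulins is therefore uncertain, most of all for the 2 tuba1c genes and tuba1a.

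Of the 48 genes, 40 reached 1 FPKM in at least 4 of the 12 libraries and were tested among 14433 genes. The 8 that did not were the neurofilament genes inaa, nefla and neflb, the microtubule-associated genes map1b, map6a, map6b and map6d1, and tubb2b. The highest value among them was 1.21 FPKM, for neflb in DMSO replicate 4. The light neurofilament gene neflb was at 0.323 to 0.685 FPKM with GW9662, 0.324 to 0.435 with rosiglitazone and 0.566 to 1.21 with DMSO. For map6d1, a relative of map6, the range was 0.092 to 0.317 FPKM with GW9662, 0.184 to 0.661 with rosiglitazone and 0.565 to 0.919 with DMSO, on 13, 23 and 43 fragments in all. For map6d1 the GW9662 libraries, and for neflb the rosiglitazone libraries, lay below all DMSO libraries, and the other compound's libraries overlapped DMSO for each gene. Levels this low had no test.

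More of these genes fell than rose in GW9662 libraries, set against DMSO libraries. Of the 40 tested, 23 fell, 3 rose and 14 did not pass the test at an adjusted p under 0.05 (limma, Benjamini-Hochberg over all genes). Over all 14433 genes, 36.0% passed, with 17.1% lower and 18.9% higher. The median log2 change was -0.21 for the 40 genes and 0.01 for all genes tested. In 22 of the 40, all GW9662 libraries lay below all DMSO libraries, against 17.5% of all genes, and in 3 all lay above, against 19.4%. The 3 that rose were stmn4l, stmn4 and tubb4b. Both classes took part: 12 of 21 neuronal genes fell and 2 rose (median -0.22), while 10 of 14 broad genes fell and 1 rose (median -0.35). Whether the classes differ was not tested. With any 1 library left out, between 19 and 24 genes fell and 3 or 4 rose.

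Fewer of these genes passed the test in rosiglitazone libraries. Against DMSO, 12 of the 40 fell and 3 rose, and 25 did not pass. Over all genes 17.0% passed, with 7.68% lower and 9.29% higher. The median log2 change was -0.12 for the 40 genes and 0.00 for all genes. All rosiglitazone libraries lay below all DMSO libraries for 14 of the 40, against 9.60% of all genes, and above them for 4, against 10.9%; dcxr is 1 of the 4. Among neuronal genes 6 of 21 fell and 2 rose (median -0.02), and among broad genes 5 of 14 fell and 1 rose (median -0.13). The 3 that rose were stmn4, maptb and tuba8l3. With 1 library left out, 0 to 2 genes rose and 10 to 14 fell. Both compounds were set against the same DMSO libraries, so the 2 comparisons are not independent.

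**Figure D2:**
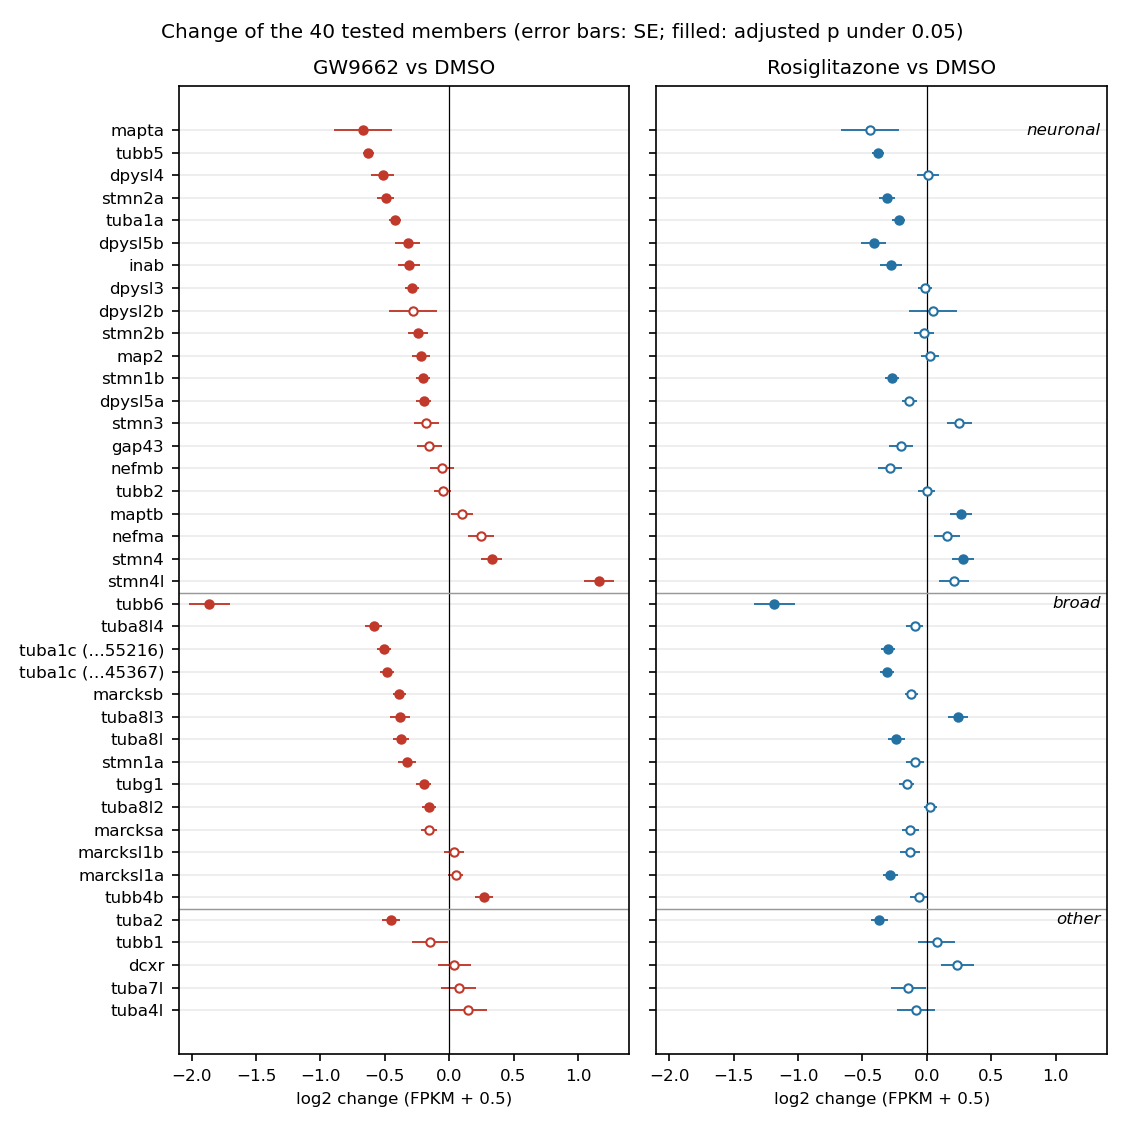
Log2 change of the 40 tested genes, on log2(FPKM + 0.5), for GW9662 against DMSO (left) and rosiglitazone against DMSO (right), with the SE of the model as bars and filled points where the adjusted p was under 0.05. Filled points lie mostly left of 0 in both panels, 23 for GW9662 and 12 for rosiglitazone, and tubb6 and stmn4l are the extremes for GW9662.

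Of 10 alpha tubulins tested, 8 fell with GW9662 and 0 rose, and with rosiglitazone 5 fell and 1 rose. Over all genes, 36.0% passed with GW9662 (17.1% lower, 18.9% higher) and 17.0% with rosiglitazone (7.68% lower, 9.29% higher). The counts of every family below are to be read against these shares, and no family was tested as a set. The family's summed level was 2208 ± 99.8 FPKM with GW9662, 2794 ± 221 with rosiglitazone and 3083 ± 85.1 with DMSO (SD, n = 4 each). The leading broad form tuba8l4 had 974, 992, 913 and 1009.8 FPKM with GW9662, 1518, 1222, 1311 and 1426 with rosiglitazone, and 1458, 1472, 1401 and 1501 with DMSO. GW9662 libraries were thus below every other library, while rosiglitazone and DMSO libraries overlapped. The log2 change of tuba8l4 was -0.59 ± 0.0656 with GW9662 (SE, adjusted p = 1.41e-05) and -0.10 with rosiglitazone (adjusted p = 0.377).

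The neuronal tuba1a fell with both compounds. Its libraries read 295, 301, 279 and 309 FPKM with GW9662, 349, 329.6, 336 and 348 with rosiglitazone, and 388, 414, 368 and 416 with DMSO. The 3 groups did not overlap, with GW9662 lowest and DMSO highest. Its log2 change was -0.42 ± 0.0495 with GW9662 (adjusted p = 2.16e-05) and -0.22 ± 0.0495 with rosiglitazone (adjusted p = 0.00899).

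Its neighbours on chromosome 23, the 2 tuba1c genes, followed the same order in their group means. The gene ENSDARG00000055216 had 182, 194, 181 and 204 FPKM with GW9662, 241, 208, 206 and 225 with rosiglitazone, and 275, 259, 270.2 and 278 with DMSO. The gene ENSDARG00000045367 had 137, 139.9, 132 and 149.7 FPKM with GW9662, 164, 142, 169 and 156 with rosiglitazone, and 195, 199, 191 and 197 with DMSO. For both, the libraries of each compound lay below all DMSO libraries. For ENSDARG00000045367 the GW9662 and rosiglitazone libraries overlapped. Log2 changes with GW9662 were -0.51 (adjusted p = 1.31e-05) for ENSDARG00000055216 and -0.49 (adjusted p = 1.55e-05) for ENSDARG00000045367. With rosiglitazone they were -0.30 (adjusted p = 0.00277) and -0.31 (adjusted p = 0.00184) in the same order.

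The unassigned tuba2, a low alpha tubulin, had 7.33, 8.46, 7.88 and 8.63 FPKM with GW9662, 8.54, 8.84, 8.44 and 8.42 with rosiglitazone, and 10.4, 11.1, 12.5 and 10.9 with DMSO. Both compounds' libraries were below all DMSO libraries, with log2 changes of -0.45 (adjusted p = 0.000184) for GW9662 and -0.37 (adjusted p = 0.00237) for rosiglitazone. The broad tuba8l also fell with both compounds, by 0.38 on the log2 scale with GW9662 (adjusted p = 0.000484) and by 0.24 with rosiglitazone (adjusted p = 0.0225). Its rosiglitazone call was lost without rosiglitazone replicate 2 or 3 or DMSO replicate 2 or 4 (adjusted p of 0.0504 to 0.0701). The broad tuba8l2 fell by 0.16 with GW9662 (adjusted p = 0.0331), a call lost without GW9662 replicate 1 or 3 or DMSO replicate 1, 2 or 4 (adjusted p of 0.0564 to 0.103). The rare tuba4l and tuba7l, at 0.710 to 1.51 FPKM, passed no test.

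The broad tuba8l3 was the alpha tubulin called in opposite directions. It had 70.1, 59.6, 59.6 and 64.4 FPKM with GW9662, 114, 89.6, 92.3 and 98 with rosiglitazone, and 85.0, 83.7, 75.9 and 86.8 with DMSO. The groups did not overlap, with DMSO in the middle. On the log2 scale the change was -0.38 with GW9662 (adjusted p = 0.00157) and 0.24 with rosiglitazone (adjusted p = 0.0467), and between the compounds it was -0.63 (adjusted p = 4.56e-05). The rise with rosiglitazone passed only narrowly: it was lost in 10 of the 12 fits that left out 1 library, all but those without GW9662 replicate 1 or rosiglitazone replicate 2 (adjusted p of 0.0526 to 0.125).

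Among the 5 beta tubulins tested, 1 rose and 2 fell with GW9662, and 0 rose and 2 fell with rosiglitazone. The summed level was 1044 ± 79.6 FPKM with GW9662, 901 ± 57.2 with rosiglitazone and 989.5 ± 33.2 with DMSO (SD, n = 4 each). The broad tubb4b (ENSDARG00000002344, chromosome 14) had 752, 865, 856 and 944 FPKM with GW9662, 724, 619.9, 659.6 and 707 with rosiglitazone, and 746, 689.9, 682 and 700.4 with DMSO. All GW9662 libraries lay above all others, replicate 1 only narrowly, and rosiglitazone and DMSO libraries overlapped. In the fit this was a log2 change of 0.27 ± 0.0701 with GW9662 (adjusted p = 0.00798) and -0.06 with rosiglitazone (adjusted p = 0.639).

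The neuronal tubb5 (ENSDARG00000037997, chromosome 16) fell instead. It had 167, 169, 156 and 168 FPKM with GW9662, 209, 184, 191 and 199 with rosiglitazone, and 258, 255, 249 and 259 with DMSO. The 3 groups were fully apart, in that order from low to high. The log2 change was -0.63 ± 0.0449 with GW9662 (adjusted p = 2.09e-07) and -0.38 ± 0.0449 with rosiglitazone (adjusted p = 8.3e-05). As a share of all beta tubulin FPKM, tubb4b made up 81.7 ± 1.48% with GW9662, 75.2 ± 0.501% with rosiglitazone and 71.2 ± 0.529% with DMSO, and tubb5 made up 15.9 ± 1.32%, 21.8 ± 0.344% and 25.8 ± 0.645% in the same order.

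The largest change of any gene of the rule was that of tubb6 (ENSDARG00000104801, chromosome 24), a scarce broad beta tubulin. It had 1.04, 0.478, 0.971 and 0.917 FPKM with GW9662, 1.74, 1.59, 2.06 and 1.21 with rosiglitazone, and 4.64, 3.77, 4.79 and 4.23 with DMSO. The groups did not overlap, with GW9662 lowest. Its log2 change was -1.86 ± 0.160 with GW9662 (adjusted p = 1.24e-06) and -1.19 ± 0.160 with rosiglitazone (adjusted p = 0.000242), on a scale where the added 0.5 understates the change of low genes. These values rest on 89 fragments in all 4 GW9662 libraries, 174 with rosiglitazone and 406 with DMSO, and tubb6 passed the filter mainly through the rosiglitazone and DMSO libraries. The neuronal tubb2 stayed near 21 FPKM, at 20.7 ± 1.01 with GW9662, 21.5 ± 1.18 with rosiglitazone and 21.5 ± 1.88 with DMSO, and passed no test. The intervals of its log2 change were -0.19 to 0.09 with GW9662 and -0.14 to 0.14 with rosiglitazone. The unassigned tubb1 passed no test either (log2 change -0.15 and adjusted p = 0.453 with GW9662, 0.08 and 0.774 with rosiglitazone).

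**Figure D3:**
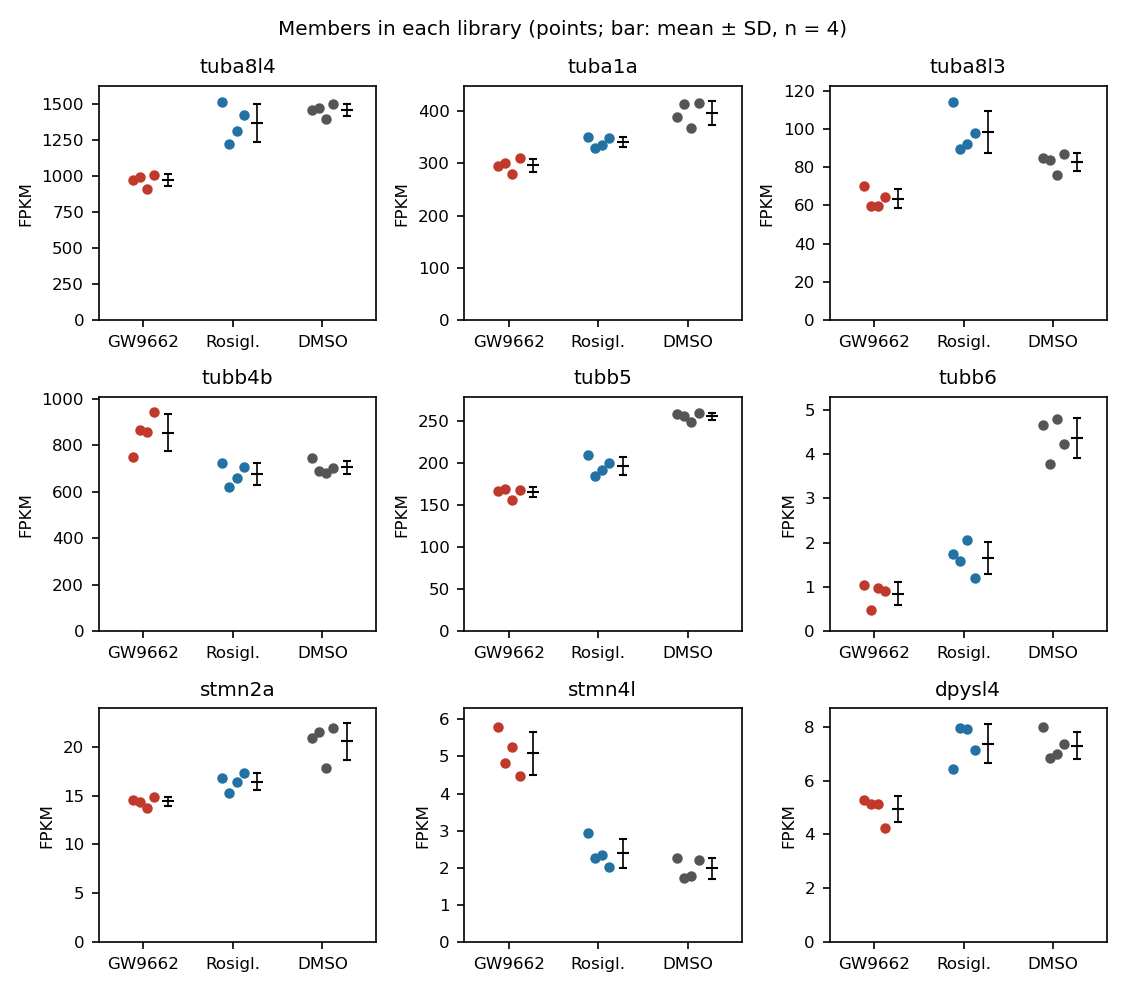
FPKM of 9 genes in each library (points) with the mean and SD of 4 libraries (bar), in the order GW9662, rosiglitazone (Rosigl.) and DMSO, on axes that start at 0. In the tubb4b panel the GW9662 points are highest, in the tubb5 and tubb6 panels they are lowest, and in the stmn4l panel they stand at 4.47 to 5.80 FPKM above all others.

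To set broad against neuronal forms within a library, the most abundant broad form of a family was divided by the most abundant neuronal one. Each ratio describes only that pair of genes, not the classes. Among the beta tubulins, the broad tubb6 fell with GW9662 (log2 change -1.86), and the neuronal tubb2 passed no test (-0.05). For the growth cone and membrane genes, marcksl1b and gap43 only share that heading here and are not forms of the same gene family. The ratio of tubb4b to tubb5 was 4.50, 5.13, 5.48 and 5.62 with GW9662, 3.45, 3.36, 3.45 and 3.55 with rosiglitazone, and 2.89, 2.70, 2.74 and 2.71 with DMSO. The 3 groups did not overlap, and the log2 difference from DMSO was 0.90 for GW9662 and 0.32 for rosiglitazone. Each gave p = 0.0286 in a two-sided exact permutation test over 4 against 4 libraries, the smallest that 70 arrangements allow, and 0.0571 after adjustment over the 8 ratio tests, so neither passed.

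The alpha tubulin pair tuba8l4 and tuba1a gave the opposite direction with GW9662. The ratio of tuba8l4 to tuba1a was 3.29 ± 0.0173 with GW9662, 4.01 ± 0.273 with rosiglitazone and 3.68 ± 0.117 with DMSO (SD, n = 4 each). All GW9662 ratios lay below all DMSO ratios (log2 difference -0.16, exact p = 0.0286, adjusted 0.0571), and rosiglitazone ratios overlapped them (0.12, exact p = 0.0857, adjusted 0.114). Other broad alpha forms differed. Of all alpha tubulin FPKM, tuba8l4 made up 44.0 ± 0.267% with GW9662 and 47.3 ± 0.164% with DMSO. The shares of tuba8l (17.2 ± 0.157% against 15.9 ± 0.385%) and tuba8l2 (7.11 ± 0.106% against 5.69 ± 0.171%) were higher with GW9662. Those of the remaining broad alpha forms overlapped. For the stathmins, stmn1a over stmn1b was 0.843 ± 0.111 with GW9662, 1.04 ± 0.0625 with rosiglitazone and 0.915 ± 0.0223 with DMSO. Here the rosiglitazone ratios lay above all DMSO ratios (log2 difference 0.18, exact p = 0.0286, adjusted 0.0571), whereas GW9662 ratios overlapped them (-0.13, exact p = 0.257). For marcksl1b over gap43 the ratio was 12.3 ± 0.718 with GW9662, 11.3 ± 0.684 with rosiglitazone and 10.7 ± 0.631 with DMSO, and all groups overlapped (exact p = 0.0571 for GW9662 and 0.257 for rosiglitazone, 0.0914 and 0.257 adjusted). No ratio passed an adjusted 0.05, a threshold that groups of 4 libraries can hardly reach over 8 tests.

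**Figure D4:**
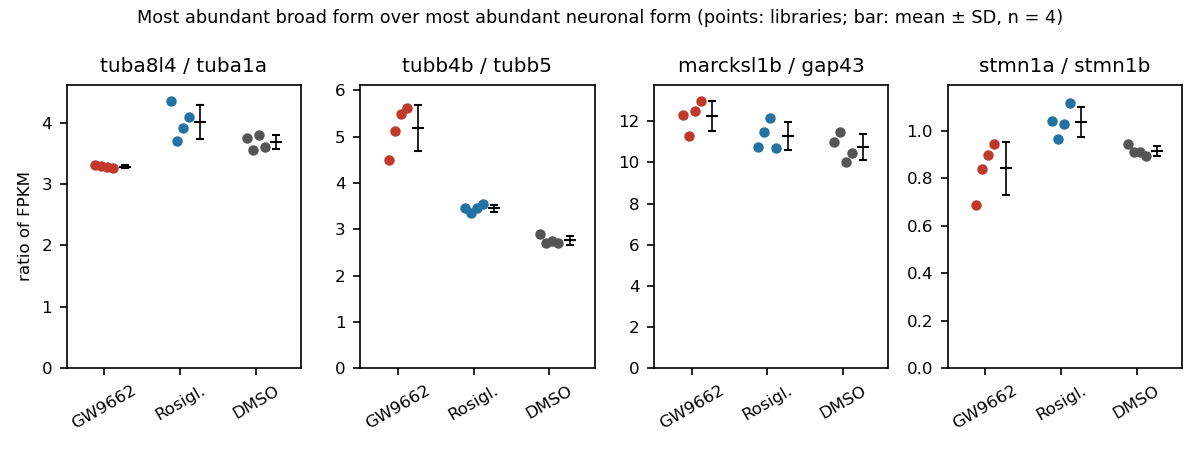
Ratio of the FPKM of the most abundant broad form to that of the most abundant neuronal form under 4 headings, per library (points) with the mean and SD of 4 libraries (bar), on axes that start at 0. The pair marcksl1b and gap43 are not forms of the same gene family. The ratio tubb4b to tubb5 is 4.50 to 5.62 with GW9662, above every rosiglitazone and DMSO library, while tuba8l4 to tuba1a is lowest with GW9662.

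Gamma tubulin, tubg1, which nucleates microtubules, had 24.9, 24.1, 25.2 and 26.3 FPKM with GW9662, 23.8, 24.9, 27.2 and 28.0 with rosiglitazone, and 27.9, 30.0, 30.3 and 27.6 with DMSO. GW9662 libraries were below all DMSO libraries, and those of rosiglitazone overlapped DMSO. On the log2 scale the change was -0.20 with GW9662 (adjusted p = 0.0159) and -0.16 with rosiglitazone (adjusted p = 0.0858, or 0.0485 without rosiglitazone replicate 4).

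The stathmins, which bind free tubulin, moved in both directions. With GW9662, 4 of 7 fell and 2 rose. Their summed level was 142 ± 5.10 FPKM with GW9662, 152 ± 10.3 with rosiglitazone and 166 ± 6.61 with DMSO (SD, n = 4 each). The riser, stmn4l (ENSDARG00000043932, chromosome 17), a relative of stathmin 4, had 5.80, 4.82, 5.26 and 4.47 FPKM with GW9662, 2.94, 2.26, 2.34 and 2.03 with rosiglitazone, and 2.26, 1.73, 1.78 and 2.22 with DMSO. GW9662 libraries were above all others, and rosiglitazone and DMSO libraries overlapped. In the fit this was a log2 change of 1.16 ± 0.119 with GW9662 (adjusted p = 5.94e-06) and 0.21 with rosiglitazone (adjusted p = 0.267).

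The related stmn4 also rose, with 6.34, 7.25, 6.12 and 5.39 FPKM in GW9662 libraries, 6.54, 5.89, 5.99 and 5.69 in rosiglitazone libraries and 4.98, 4.60, 4.75 and 5.13 in DMSO libraries. Both compounds' libraries were above all DMSO libraries. The log2 change was 0.33 with GW9662 (adjusted p = 0.00717) and 0.28 with rosiglitazone (adjusted p = 0.0338). The rosiglitazone call was lost without rosiglitazone replicate 1, 2 or 3 or DMSO replicate 1, 2 or 3 (adjusted p of 0.0553 to 0.089).

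In the other direction, the neuronal stmn2a (SCG10 in mammals) had 14.6, 14.4, 13.7 and 14.9 FPKM with GW9662, 16.8, 15.3, 16.4 and 17.3 with rosiglitazone, and 20.9, 21.5, 17.8 and 21.9 with DMSO. No groups overlapped, and GW9662 was lowest. Its log2 change was -0.49 ± 0.0652 with GW9662 (adjusted p = 5.96e-05) and -0.31 ± 0.0652 with rosiglitazone (adjusted p = 0.00559). Its duplicate stmn2b fell by 0.24 with GW9662 (adjusted p = 0.0282), a call lost without GW9662 replicate 1, 2 or 3 or DMSO replicate 1 or 4 (adjusted p of 0.0581 to 0.0851), and changed by -0.02 with rosiglitazone (adjusted p = 0.887).

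The most abundant stathmin was the neuronal stmn1b, at 52.8, 49.8, 44.5 and 47.5 FPKM with GW9662, 50.3, 44.5, 45.4 and 45.3 with rosiglitazone, and 56.9, 55.5, 54.3 and 57.0 with DMSO. Both compounds' libraries lay below DMSO. It fell by 0.20 on the log2 scale with GW9662 (adjusted p = 0.0115) and by 0.27 with rosiglitazone (adjusted p = 0.00468). Its broad duplicate stmn1a, made in dividing cells, fell with GW9662 (log2 change -0.33, adjusted p = 0.00246), and with rosiglitazone its change was -0.09 (adjusted p = 0.433). For stmn3 the change was -0.18 with GW9662 (adjusted p = 0.175) and 0.25 with rosiglitazone (adjusted p = 0.0974).

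Of the 5 collapsin response mediator genes, 4 fell with GW9662 and 1 with rosiglitazone. The neuronal dpysl4 had 5.28, 5.13, 5.15 and 4.25 FPKM with GW9662, 6.44, 7.96, 7.91 and 7.12 with rosiglitazone, and 7.97, 6.84, 6.99 and 7.37 with DMSO. GW9662 libraries were below all others, and rosiglitazone and DMSO libraries shared a range. On the log2 scale the change was -0.52 ± 0.0866 with GW9662 (adjusted p = 0.000431) and 0.01 with rosiglitazone (interval -0.18 to 0.20). A similar pattern held for dpysl3, at 13.4 ± 0.721 FPKM with GW9662, 16.3 ± 0.534 with rosiglitazone and 16.5 ± 0.898 with DMSO (log2 change -0.29 and adjusted p = 0.00115 with GW9662, -0.01 and 0.907 with rosiglitazone).

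By contrast, dpysl5b had 3.27, 2.91, 3 and 3.30 FPKM with GW9662, 3.43, 3.01, 2.45 and 2.76 with rosiglitazone, and 4.15, 3.61, 4.08 and 4.27 with DMSO. Both compounds' libraries were below all DMSO libraries. Its log2 change was -0.32 with GW9662 (adjusted p = 0.0183) and -0.41 with rosiglitazone (adjusted p = 0.0101). The GW9662 call was lost without GW9662 replicate 2 or DMSO replicate 4 (adjusted p of 0.0502 to 0.0521). Its duplicate dpysl5a, the most abundant of the family, had 16.5, 15.9, 14.5 and 15.6 FPKM with GW9662, 16.8, 16.2, 16.7 and 15.6 with rosiglitazone, and 16.8, 17.6, 17.8 and 19.8 with DMSO. GW9662 libraries lay below all DMSO libraries by a small margin, with a log2 change of -0.20 (adjusted p = 0.017, but 0.0562 without GW9662 replicate 3 and 0.0523 without DMSO replicate 4). Rosiglitazone libraries also lay narrowly below all DMSO libraries (16.81 FPKM at most against 16.85 at least), with a change of -0.14 (adjusted p = 0.134). For dpysl2b the GW9662 libraries read 5.49, 6.13, 6.51 and 12.3 FPKM, the last in replicate 4, against 8.21 to 9.81 with rosiglitazone and 7.54 to 9.69 with DMSO. The change did not pass (log2 change -0.28, adjusted p = 0.272), but it did without GW9662 replicate 4 (adjusted p = 0.00115).

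Of the 4 genes tested under microtubule-associated names, dcxr included, 2 fell with GW9662 and 1 rose with rosiglitazone. The neuronal map2 fell with GW9662, at 9.64 ± 0.643 FPKM against 11.3 ± 0.329 with DMSO (SD, n = 4 each; log2 change -0.22, adjusted p = 0.024), and was at 11.5 ± 1.0 FPKM with rosiglitazone. The fall was lost without GW9662 replicate 4 (adjusted p = 0.069) or DMSO replicate 2 (adjusted p = 0.0653). The tau genes differed: mapta had 1.84, 1.75, 2.42 and 1.41 FPKM with GW9662, 1.34, 2.88, 2.36 and 2.61 with rosiglitazone, and 2.72, 3.95, 4.46 and 2.16 with DMSO. GW9662 and DMSO libraries of mapta overlapped, and DMSO values spread widely. Its log2 change of -0.67 ± 0.224 passed with GW9662 (adjusted p = 0.0323), but not without GW9662 replicate 1, 2 or 4 or DMSO replicate 2 or 3 (adjusted p of 0.060 to 0.0958). With rosiglitazone its change was -0.44 (adjusted p = 0.214).

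The second tau gene, maptb, was at 7.09 ± 0.810 FPKM with GW9662, 7.99 ± 0.610 with rosiglitazone and 6.56 ± 0.344 with DMSO. It passed with rosiglitazone (log2 change 0.26, adjusted p = 0.0475), and the call was lost in 10 of 12 fits without 1 library, all but those without GW9662 replicate 4 or rosiglitazone replicate 1 (adjusted p of 0.0501 to 0.129). The non-cytoskeletal dcxr had 13.7, 14.8, 14.8 and 18.5 FPKM with GW9662, 24.3, 15.6, 16.0 and 16.0 with rosiglitazone, and 15.4, 15, 13.8 and 15.5 with DMSO. Its rosiglitazone libraries were above all DMSO libraries, mostly narrowly, and no test passed.

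Of the 3 neurofilament genes tested, 1 fell with each compound, where 36.0% of all genes passed with GW9662 and 17.0% with rosiglitazone. The internexin gene inab, a neuronal intermediate filament gene, had 9.31, 9.68, 8.95 and 8.22 FPKM with GW9662, 7.62, 10.1, 9.77 and 9.97 with rosiglitazone, and 11.0, 12.1, 11.6 and 10.8 with DMSO. Both compounds' libraries were below all DMSO libraries. In the fit this was a log2 change of -0.31 with GW9662 (adjusted p = 0.011) and -0.27 with rosiglitazone (adjusted p = 0.0439). The rosiglitazone call was lost in 9 of 12 fits without 1 library, all but those without GW9662 replicate 4 or rosiglitazone replicate 2 or 4 (adjusted p of 0.0517 to 0.114). The medium neurofilament gene nefma was at 5.09 ± 0.265 FPKM with GW9662, 4.76 ± 0.411 with rosiglitazone and 4.24 ± 0.723 with DMSO, and passed with GW9662 only without DMSO replicate 4 (adjusted p = 0.0697 with it, 0.00645 without). Its duplicate nefmb was at 10.3 ± 1.31, 8.66 ± 0.744 and 10.7 ± 1.04 FPKM in the same order, and its rosiglitazone change of -0.28 missed the threshold (adjusted p = 0.0568). It passed without GW9662 replicate 1 or 4 or rosiglitazone replicate 4 (adjusted p of 0.0346 to 0.0472).

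Of the growth cone and membrane genes, 1 of 5 fell with each compound, marcksb with GW9662 and marcksl1a with rosiglitazone. With either compound 0 rose. Over all genes, 36.0% passed with GW9662 (17.1% lower) and 17.0% with rosiglitazone (7.68% lower), and 5 genes are too few to rank against these shares. The broad marcksb fell with GW9662, at 223 ± 10.7 FPKM against 291 ± 7.47 with DMSO (log2 change -0.39, adjusted p = 5.55e-05), with rosiglitazone at 268 ± 16.8 FPKM (log2 change -0.12, adjusted p = 0.13). The broad marcksl1a had 275, 273, 272 and 313 FPKM with GW9662, 239.9, 208, 223 and 228 with rosiglitazone, and 261, 281, 264 and 288 with DMSO. Rosiglitazone libraries were below all others, with a log2 change of -0.28 ± 0.0587 (adjusted p = 0.00489), and GW9662 and DMSO libraries overlapped (0.05, adjusted p = 0.558).

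The most abundant of them, marcksl1b, had 456, 446, 431 and 481 FPKM with GW9662, 476, 367, 379.9 and 399 with rosiglitazone, and 423, 451, 419 and 477 with DMSO. Groups overlapped and neither change passed (0.04 and -0.13 on the log2 scale). Neuronal gap43, the growth-associated protein of growth cones, was at 37.0 ± 2.07 FPKM with GW9662, 36.2 ± 6.02 with rosiglitazone and 41.3 ± 3.18 with DMSO, and did not pass (adjusted p = 0.242 with GW9662 and 0.19 with rosiglitazone). Rosiglitazone replicate 1 was the highest of its group for gap43, marcksl1b and marcksb, and without it these 3 passed as lower with rosiglitazone (adjusted p = 0.0155, 0.0199 and 0.0357). For marcksa, a low broad form, the GW9662 change of -0.16 (adjusted p = 0.0653) passed without DMSO replicate 2 or rosiglitazone replicate 1 or 2 (adjusted p of 0.0306 to 0.0493), and the rosiglitazone change of -0.13 (adjusted p = 0.201) passed without rosiglitazone replicate 2 (adjusted p = 0.0479).

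Set directly against rosiglitazone, at doses that differ, GW9662 gave lower values for 15 of the 40 genes and higher ones for 3, and 22 did not pass. Over all genes 30.5% passed, with 14.5% lower and 16.0% higher. The median log2 difference was -0.17 for the 40 genes and 0.01 for all. By class, 7 of 21 neuronal genes were lower with GW9662 and 1 was higher, and 8 of 14 broad genes were lower and 2 higher. The higher ones were stmn4l (0.95, adjusted p = 5.31e-05), marcksl1a (0.33, adjusted p = 0.00082) and tubb4b (0.33, adjusted p = 0.00302).

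The lower ones were led by tubb6 (-0.68, adjusted p = 0.0062), tuba8l3 (-0.63), dpysl4 (-0.53, adjusted p = 0.000497) and tuba8l4 (-0.49, adjusted p = 9.86e-05). The difference for stmn3 also passed (-0.43, adjusted p = 0.00454), as did that for dpysl3 (-0.27, adjusted p = 0.0021). For stmn1b it was 0.07, with an interval of -0.05 to 0.19, and for tuba2 -0.08, with an interval of -0.23 to 0.06. Without 1 library, 11 to 16 genes were lower and 3 or 4 higher. The call of stmn2a (-0.18, adjusted p = 0.0483) was lost in 9 of 12 such fits, all but those without rosiglitazone replicate 2 or DMSO replicate 3 or 4 (adjusted p of 0.0563 to 0.122). That of tuba1c at ENSDARG00000045367 (-0.18, adjusted p = 0.0276) was lost without GW9662 replicate 1, 2 or 3 or rosiglitazone replicate 1 or 3 (adjusted p of 0.0558 to 0.0851). The call of stmn1a (-0.24, adjusted p = 0.021) was lost without GW9662 replicate 1 or 3 or rosiglitazone replicate 1 or 4 (adjusted p of 0.0501 to 0.0653). For map2 (-0.24, adjusted p = 0.0168) this happened without rosiglitazone replicate 3 or 4, and for tuba8l2 (-0.19, adjusted p = 0.0173) without GW9662 replicate 3 (adjusted p = 0.0568). Without GW9662 replicate 4, dpysl2b passed as lower (adjusted p = 0.000807). Without rosiglitazone replicate 1, marcksl1b passed as higher (adjusted p = 0.00503), as did nefmb without GW9662 replicate 1 (adjusted p = 0.0378). The difference for stmn2b (-0.22, adjusted p = 0.0508) passed without GW9662 replicate 4, rosiglitazone replicate 2 or DMSO replicate 3 or 4 (adjusted p of 0.0121 to 0.0481).

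Lists of other genes of neurons and of the microtubule system were counted in the same way, where 36.0% of all genes passed with GW9662 (17.1% lower, 18.9% higher) and 17.0% with rosiglitazone (7.68% lower, 9.29% higher). Of 26 pan-neuronal genes tested, 12 fell and 1 rose with GW9662 (median log2 change -0.24), and 4 fell and 0 rose with rosiglitazone (median -0.13). Their summed level was 309.2 to 336.5 FPKM with GW9662, 325.4 to 344.6 with rosiglitazone and 359.8 to 377.1 with DMSO. Among them, nsg2, a neuronal vesicle protein gene, fell by 0.56 on the log2 scale with GW9662 (adjusted p = 3.9e-05), and the neuronal sodium pump subunit gene atp1a3a fell by 0.51 (adjusted p = 0.000158). With rosiglitazone atp1a3a also fell (log2 change -0.39, adjusted p = 0.00355), and the change of nsg2 was -0.20 (adjusted p = 0.0662). Of 20 neural progenitor genes, 12 fell and 1 rose with GW9662 (median -0.23), among them fabp7a, a radial glial fatty acid binding protein gene, at 72.1 ± 18.4 FPKM against 161 ± 12.8 with DMSO (log2 change -1.18, adjusted p = 1.98e-05). With rosiglitazone 4 of the 20 fell and 1 rose. The part of these neural genes in the tubulin values was not tested.

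Early sensory and motor neuron genes were mixed, with 4 of 14 lower and 3 higher with GW9662, and 0 lower and 2 higher with rosiglitazone. The motor and sensory neuron regulator isl2a rose with both compounds, at 23.9 ± 1.78 FPKM with GW9662, 21.9 ± 0.723 with rosiglitazone and 17.2 ± 1.93 with DMSO (log2 changes 0.47 and 0.34, adjusted p = 0.000308 and 0.00658). In the same libraries fgf13a, a neuronal sodium channel partner, fell with GW9662 (log2 change -0.70, adjusted p = 0.000153).

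Counts for the machinery around tubulin are to be read against the shares of all genes that passed, 36.0% with GW9662 and 17.0% with rosiglitazone, and lay near or below them. Of 26 microtubule assembly and nucleation genes, 6 fell and 2 rose with GW9662 (median -0.04), and 3 fell and 0 rose with rosiglitazone (median -0.03). The minus-end binding gene camsap1a fell with both (log2 change -0.45 and adjusted p = 0.00162 with GW9662, -0.34 and 0.021 with rosiglitazone), and tubgcp2, a partner of gamma tubulin, fell with GW9662 (-0.29, adjusted p = 0.00493). From the same list, map7d1a rose with GW9662 (0.26, adjusted p = 0.00176). Of 16 tubulin modification and severing genes, 5 fell and 1 rose with GW9662 (median -0.12), and 1 fell and 0 rose with rosiglitazone (median -0.05). The 1 that fell with rosiglitazone was atat1, the alpha tubulin acetyltransferase gene, at 1.69 ± 0.142 FPKM against 2.55 ± 0.254 with DMSO (-0.47, adjusted p = 0.00724). The 1 that rose with GW9662 was ttll4 (0.24, adjusted p = 0.00364). Of 24 axonal transport motor genes, 4 fell and 2 rose with GW9662 (median -0.02), and 2 fell and 0 rose with rosiglitazone (median -0.08). The kinesin gene kif21a fell with GW9662 (log2 change -0.90, adjusted p = 8.66e-06), at 2.43 ± 0.230 FPKM with GW9662, 5.22 ± 0.583 with rosiglitazone and 4.96 ± 0.428 with DMSO, and its rosiglitazone change was 0.07 (adjusted p = 0.706). The neuronal kinesin kif5aa and the dynein chain gene dync1i1 fell with rosiglitazone (-0.30, adjusted p = 0.00424, and -0.40, adjusted p = 0.0107). Another gene of this list, kif5ba, rose with GW9662 (0.23, adjusted p = 0.00731).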

How the data were processed

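RNA-seq of 12 whole-embryo libraries was used, grouped by title. Per the submitters' processing notes, HISAT2 2.0.5 and featureCounts 1.5.0-p3 were named; no source used here names a genome build or strand setting. The deposited values are FPKM, computed by the authors per gene and library, beside each gene's length. FPKM times length was a whole multiple of the library's smallest such product for 100% of 268097 values above 0 (tolerance 0.001). That smallest product was taken as a single fragment.

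Genes reaching 1 FPKM in 4 or more libraries were tested on log2(FPKM + 0.5) in a single limma model of all 12 libraries with a variance trend. P-values are two-sided and Benjamini-Hochberg adjusted over all 14433 genes within a comparison, at 0.05. FPKM means carry the SD of 4 libraries, and log2 changes the model's SE. Ratios were tested by exact permutation.

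The genes, classes and lists were chosen with earlier results of these data known. Values in every library are given for the 8 largest passing changes with at least 2 FPKM in a group in each comparison with DMSO, and for the most abundant gene of each family; any other gene given in full was chosen after its values were seen. Up to 4 genes with the smallest adjusted p were eligible to be named from each list; 255 of 265 list symbols were matched. Equal replicate numbers gave no basis for pairing libraries. Count tests planned on recovered fragments were replaced by voom. R 4.3.3, limma 3.58.1, data.table version 1.17.8, Python 3.11.15, matplotlib 3.10.9, pandas 2.3.3 and numpy 2.4.6 were used.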

Additional observations from a re-analysis of the deposited data

Results flagged for a closer look

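In 10 of 141 sets of 4 libraries, 1 library stood apart from the other 3 by Dixon's criterion, which chance gives in about 1 set in 20. GW9662 replicate 4 accounts for 5 of them. It was at 313 FPKM for marcksl1a, against 272 to 275 in the other GW9662 libraries, and at 12.3 FPKM for dpysl2b, against 5.49 to 6.51. The same library was low for dpysl3, at 12.3 FPKM against 13.7 to 13.8, for map2, at 8.68 against 9.84 to 10.0, and for dpysl4, at 4.25 against 5.13 to 5.28. Rosiglitazone replicate 1 accounts for 3: stmn1b at 50.3 FPKM against 44.5 to 45.4, dcxr at 24.3 against 15.6 to 16.0, and inab at 7.62 against 9.77 to 10.1. The other two were tubb5 in GW9662 replicate 3, at 156 FPKM against 167 to 169, and tuba7l in rosiglitazone replicate 4, at 1.26 against 0.893 to 0.943. With GW9662 replicate 4 and rosiglitazone replicate 1 both left out, 24 of the 40 genes fell and 3 rose with GW9662, and 16 fell and 2 rose with rosiglitazone.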

How the results depend on the processing

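No called gene of the rule turned direction under any alternative run: pseudocounts of 0.1 and 1, no filter, a stricter filter (mean of 5 FPKM), 3 other scalings, no variance trend, 2 groups in the fit, a replicate block, voom on recovered fragments, and fits without 1 or 2 libraries. The voom fit, the fit without 2 libraries and the ratios without 1 library were chosen after seeing the data. The planned edgeR and DESeq2 tests were not run. Among genes that rose with rosiglitazone, all (3) became 0 with no filter and 1 with equal FPKM totals or no trend, and 0 to 2 without 1 library. Neuronal ones (2) became 0 with no filter or equal totals, 1 with median-of-ratios scaling, no trend or the replicate block, and 0 to 2 without 1 library. The broad one (1) became 0 with no filter, no trend, 2 groups in the fit or 2 libraries left out, and 0 to 1 without 1 library. Broad genes that fell with rosiglitazone (5) became 8 with equal totals. Neuronal genes that rose with GW9662 (2) became 1 with the stricter filter, which leaves out stmn4l. Between the compounds, neuronal genes higher with GW9662 (1) became 0 with the stricter filter, 2 with the replicate block and 1 to 2 without 1 library; broad genes lower with GW9662 (8) became 5 to 8 without 1 library. The causes were not tested. Residuals of libraries with equal replicate numbers correlated at -0.0502 to 0.228 between GW9662 and DMSO (best match for 2 of 4), -0.0103 to 0.0751 between rosiglitazone and DMSO (1 of 4), and 0.0377 to 0.199 between the compounds (1 of 4). The block lost or added no call for GW9662, ended that of maptb and added nefmb for rosiglitazone, and added nefmb and stmn2b between compounds. Depth limits tubb6 (89 fragments in the 4 GW9662 libraries) and map6d1 (13).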

Other observations

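Other processes and cell types that use tubulin were counted against the shares of all genes that passed. These were 36.0% with GW9662 (17.1% lower, 18.9% higher) and 17.0% with rosiglitazone (7.68% lower, 9.29% higher). Of 26 cell division genes, 8 fell and 2 rose with GW9662 (median log2 change -0.11), and 7 fell and 0 rose with rosiglitazone (median -0.12). The mitotic checkpoint kinase gene bub1 fell with both compounds, with log2 changes of -0.18 (adjusted p = 0.00553) with GW9662 and -0.25 (adjusted p = 0.00154) with rosiglitazone, and ccne2, a cyclin gene of entry into DNA replication, fell with GW9662 (-0.24, adjusted p = 0.00351). The 2 that rose were kif11 and prc1b. The mitotic kinesin gene kif11 rose with GW9662 and fell with rosiglitazone, at 86.6 ± 1.79 FPKM with GW9662, 67.1 ± 3.28 with rosiglitazone and 76.1 ± 1.66 with DMSO (SD, n = 4 each). Its log2 change was 0.19 with GW9662 (adjusted p = 0.00301) and -0.18 with rosiglitazone (adjusted p = 0.00849), and 0.37 between GW9662 and rosiglitazone (adjusted p = 1.98e-05). The spindle midzone gene prc1b had the same directions, with log2 changes of 0.15 (adjusted p = 0.0317) with GW9662 and -0.25 (adjusted p = 0.00391) with rosiglitazone.

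Of 14 motile cilia genes, 3 rose and 0 fell with GW9662 (median 0.15), and 0 passed with rosiglitazone. The regulator of motile cilia foxj1a was at 5.99 ± 0.276 FPKM with GW9662, 3.98 ± 0.219 with rosiglitazone and 4.28 ± 0.468 with DMSO (log2 change 0.45, adjusted p = 0.000649 with GW9662). Of 17 epidermis genes, 4 rose and 4 fell with GW9662, and 2 rose and 3 fell with rosiglitazone. The keratin gene krtt1c19e, of basal epidermis, fell with GW9662, at 16.6 ± 3.08 FPKM, 103 ± 20 with rosiglitazone and 99.4 ± 11.8 with DMSO (log2 change -2.55, adjusted p = 4.11e-08), while krt92 rose, at 501 ± 9.70, 448 ± 35.9 and 264 ± 13.6 FPKM in the same order (0.93, adjusted p = 5.56e-08).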
